A study of Ambystoma mexicanum with 6 samples.

Results

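Assembled genes whose RNA level was higher in every limb treated with iMDK than in any control limb are described here, in regenerating limbs of the axolotl, Ambystoma mexicanum. iMDK is an inhibitor of midkine, a secreted, heparin-binding growth factor, and DMSO is the solvent the control animals received. The study states that the direct target of iMDK is unknown and that non-specific effects of it cannot be discounted. The 3 iMDK-treated and 3 DMSO-treated limbs were collected at 11 dpa (days post-amputation), and treatment began right after the amputation and ran until collection. Each library came from a limb of a different animal of the white strain, all juvenile and immersed in the solution, so that the whole animal and not the limb alone was exposed. An assembled gene entered the set when its lowest value in the 3 iMDK-treated limbs was at least 5 and at least 2 times its highest value in the 3 DMSO-treated limbs. These thresholds were met by 126 of 1388798 assembled genes, or 0.284% of the 44342 that reached 1 in at least 3 libraries. A fixed list of 9 assembled genes was left out, 4 of which met the thresholds, and 122 remained. The members were chosen by the values described below, so their levels are a description of these 6 limbs and carry no test.

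An amputated axolotl limb is first covered by a wound epidermis, beneath which a blastema of proliferating progenitor cells gathers before the limb is rebuilt, and macrophages are among the cells this process needs. Midkine is known from vertebrates as a factor that acts on cell growth, survival and the movement of inflammatory cells. RNA was read against a transcriptome assembled from sequencing reads alone. In such an assembly, reads that overlap are gathered in a component (the first part of an identifier, such as c1089890), which is split into assembled genes (g2, g5) and these into transcripts (i1, i2) that stand for isoforms. An assembled gene can be a whole gene, a fragment of one, or one of several close copies or alleles. Of the 1388798 assembled genes, 382903 had a value above 0 in any library.

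The deposited unit is TPM (a share of all transcripts, corrected for transcript length) scaled between libraries by a TMM factor, and the value of an assembled gene is the sum over its transcripts. Read totals are not kept by this unit, so the depth behind each value is unknown, and a value listed at 0 may be an estimate that failed rather than RNA that was missing. Of the 11720 assembled genes with at least 5 in every iMDK-treated limb, 1.08% met the thresholds and 1.04% were members. In the other direction, 49 assembled genes were at 5 or more in every DMSO-treated limb with at least 2 times the highest iMDK value.

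**Figure D1:**
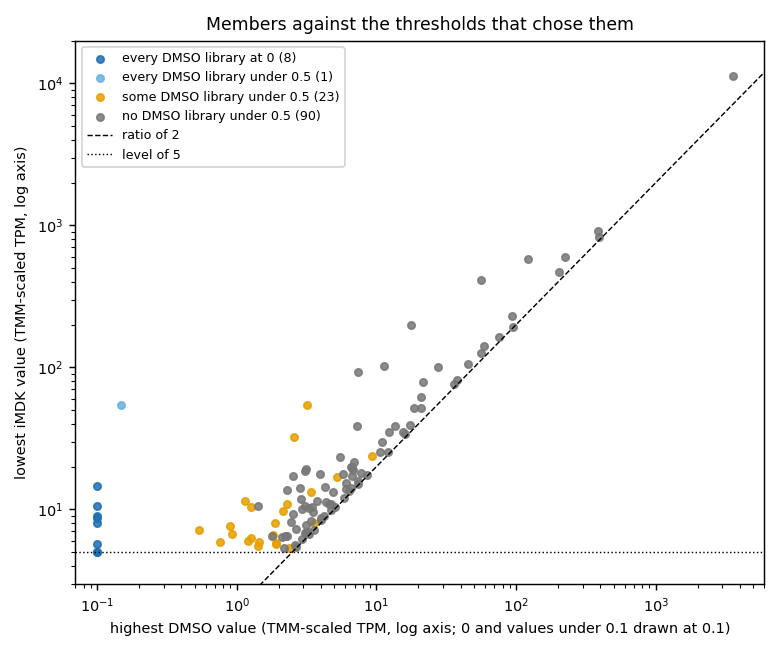
Each point is a member, with its highest value in the 3 DMSO-treated limbs on the horizontal axis (values under 0.1 drawn at 0.1) and its lowest value in the 3 iMDK-treated limbs on the vertical axis (TMM-scaled TPM, both log axes), coloured by its pattern in DMSO-treated limbs. All 122 members lie on or above the lines of a lowest iMDK value of 5 and a ratio of 2, which chose them, and 65 have a ratio under 3.

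Most members were of low to middling level. The mean of the 3 iMDK-treated limbs was under 10 for 22 members, from 10 to under 30 for 58, from 30 to under 100 for 24, from 100 to under 1000 for 16, and at least 1000 for 2. The median member had a mean of 18.9 in iMDK-treated and 2.70 in DMSO-treated limbs, where the median of the 11720 assembled genes at the same minimum was 17.6 and 17.5. The members thus had iMDK levels like those of other assembled genes at that minimum, and low DMSO levels, which is what the ratio in the rule selects.

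Many members passed the ratio narrowly. The lowest iMDK value was from 2 to 2.5 times the highest DMSO value in 45 members, from 2.5 to 3 times in 20, from 3 to 5 times in 28, from 5 to 10 times in 15 and over 10 times in 6, with a median of 2.82. The other 8 members were listed at 0 in all DMSO-treated limbs and have no ratio. Nearest to the ratio threshold were c1092132_g1 (2.01), c1060167_g1 (2.02) and c1046823_g1 (2.03) inside it, and c796061_g1 (1.996), c1070976_g3 (1.98) and c1082490_g5 (1.98) outside it. Nearest to the level threshold were c1075429_g2 (lowest iMDK value 5.01), c1030452_g1 (5.02) and c1068539_g2 (5.34) inside it, and c1080324_g1 (4.87), c1092658_g1 (4.67) and c1067253_g1 (4.55) outside it.

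A single assembled gene of 1 transcript, c1042307_g1, supplied most of the summed level of the set in iMDK-treated limbs. Its values were 3546, 2214 and 804 in the DMSO-treated and 11500.3, 11224 and 11726 in the iMDK-treated limbs, with means of 2188 ± 1371 and 11483 ± 251 (SD, n = 3 each). The iMDK-treated limbs lay close together, whereas the DMSO-treated limbs were spread. It held 0.0816 to 0.349% of the summed values of a DMSO library and 1.04 to 1.16% of an iMDK library, and ranked 5th to 7th among all assembled genes in the iMDK libraries and 21st to 116th in the DMSO libraries. No table used here names it.

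Summed over the 122 members, the level was 5642, 3395 and 2391 in DMSO-treated and 19643, 19734 and 21157 in iMDK-treated limbs. Without c1042307_g1 the sums were 2096, 1181 and 1588 (mean 1622 ± 458, SD, n = 3) against 8143, 8510 and 9431 (mean 8694 ± 664, SD, n = 3). The first DMSO-treated limb had the highest sum of its group in both cases.

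The second member by level was c1046138_g1, the one member with a name among the names used here. Its transcripts have as best protein hits the entries GTAN_DICDI and Y8359_DICDI of the slime mold Dictyostelium discoideum; the species part gives the hit and not the origin of the RNA. The summed value was 385, 0.658 and 2.67 in DMSO-treated and 1015, 921 and 1269 in iMDK-treated limbs. The lowest treated limb was 2.39 times the first DMSO-treated limb, and the other 2 DMSO-treated limbs were under 3. Both transcripts followed the same pattern: i1 was at 157, 0.658 and 1.39 in DMSO-treated and 431, 366 and 448 in iMDK-treated limbs, and i2 was at 227, 0 and 1.28 in DMSO-treated and 584, 555 and 821 in iMDK-treated limbs.

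The other members of high level differed in how tightly the limbs of a group lay. c1088325_g3 was at 391, 148 and 104 in DMSO-treated and 842, 835 and 1063 in iMDK-treated limbs. For c1051469_g1 the values were 122, 109 and 119 against 605, 947 and 577. c1069619_g1 had 38.6, 46.8 and 56.4 against 461, 415 and 416. In the last 2 the DMSO-treated limbs lay close together and far under the iMDK-treated limbs; in c1088325_g3 the first DMSO-treated limb stood above the other 2. The ratio of the group means was 4.26 for c1088325_g3, 6.09 for c1051469_g1 and 9.11 for c1069619_g1.

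c1047674_g1 (225, 156 and 147 in DMSO-treated, 605, 705 and 595 in iMDK-treated limbs) and c1082391_g1 (133, 125 and 204 against 470, 480 and 749) had ratios of means of 3.61 and 3.67. c1082844_g1 had 70.2, 68.7 and 93.3 against 229, 230 and 437, a ratio of 3.86. In c1082391_g1 and c1082844_g1 the third iMDK-treated limb was the high one.

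**Figure D2:**
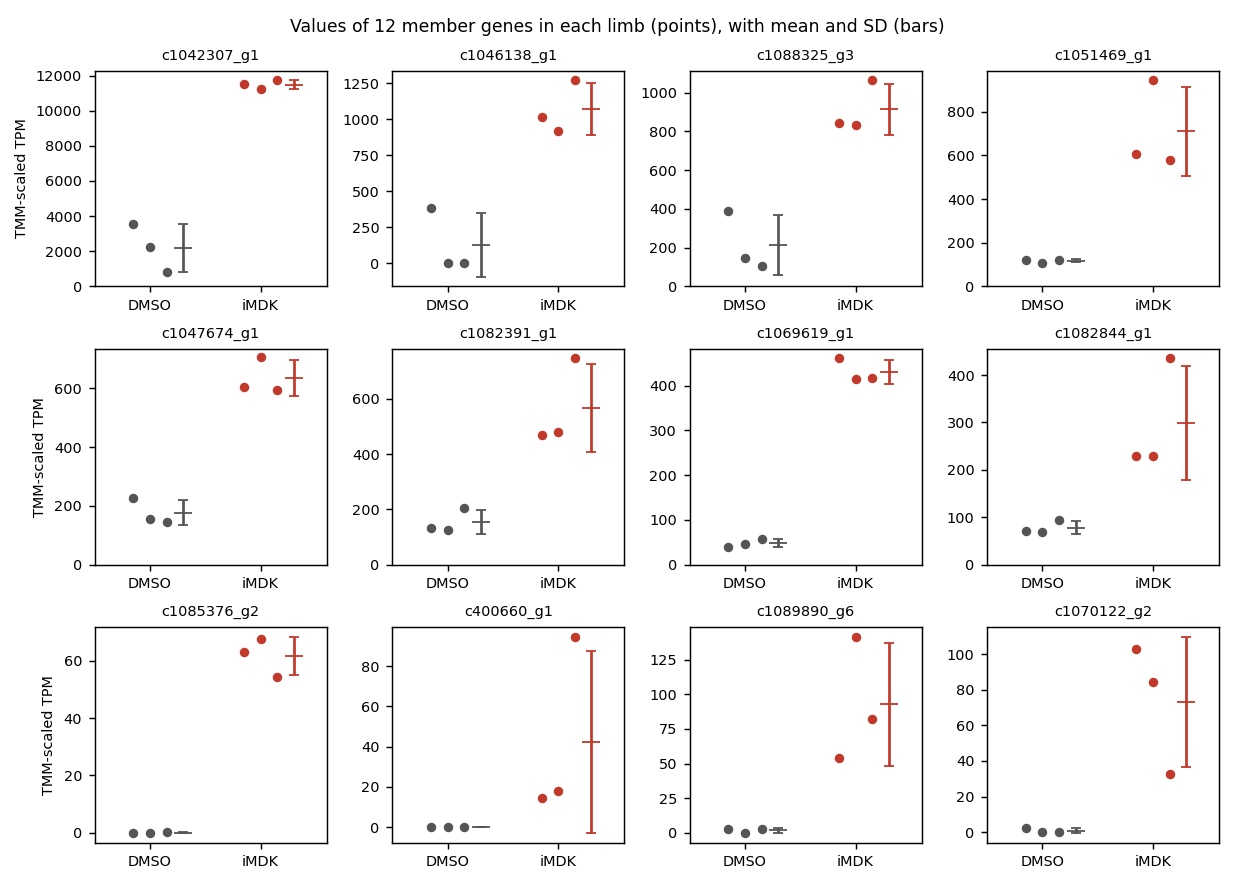
Summed value per assembled gene (TMM-scaled TPM, linear axes that differ between panels) in each of the 3 DMSO-treated (grey) and 3 iMDK-treated (red) limbs for 12 members, points for limbs and bars for the mean and SD. The iMDK-treated limbs of c1042307_g1 lie between 11224 and 11726, and c1046138_g1 has 1 DMSO-treated limb at 385 and the other 2 under 3.

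The members were also read for an on or off pattern, with a value under 0.5 taken as near 0. Of the 122 members, 8 were listed at 0 in all 3 DMSO-treated limbs, 1 was under 0.5 in all 3, 23 were under 0.5 in at least 1 but not all, and 90 were at 0.5 or more in every DMSO-treated limb. A graded difference was therefore the usual pattern among the members, and off in all controls the rare one. Of the 11720 assembled genes with at least 5 in every iMDK-treated limb, 8 were at 0 in every DMSO-treated limb. With these counted, 9 were under 0.5 in every DMSO-treated limb and 84 in at least 1, against 9 and 32 of the members. A gene at that minimum and under 0.5 in all controls always meets the ratio, so the rule fixes the first of these counts. In the other direction, 6 assembled genes were at 5 or more in every DMSO-treated limb and under 0.5 in every iMDK-treated limb, 4 of them listed at 0 there.

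The member nearest to a switch with a tight level was c1085376_g2, of 1 transcript. It was at 0, 0 and 0.149 in DMSO-treated and 63.1, 67.4 and 54.3 in iMDK-treated limbs. Its neighbour in the component, c1085376_g1, was at 22.3, 34.3 and 35.6 against 37.2, 41.1 and 40.9. The neighbour was present in every limb and lay higher in the iMDK-treated limbs without overlap, by far less than the member.

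The 8 members listed at 0 in every DMSO-treated limb were of low level in the iMDK-treated limbs. Their values ran from 5.01 to 94.5, the median of their iMDK means was 11.9, and 6 of them had 1 transcript in the assembly. The highest single value belonged to c400660_g1, at 14.6, 17.8 and 94.5, where the third limb stood apart. c1085290_g5 had the same shape at 9.72, 7.99 and 38.2, and c970365_g1 was at 8.16, 5.71 and 19.5.

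Among these 8, c1020209_g1 (16.97, 10.5 and 12.6), c1443240_g1 (13.0, 8.96 and 9.69) and c1086765_g3 (17.3, 12.2 and 8.64) varied less between the iMDK-treated limbs. c1030452_g1 varied less as well, at 7.64, 5.50 and 5.02, whereas c1075429_g2 was at 15.9, 7.62 and 5.01. Both came close to the level threshold in the third limb. No fold is given for the 8, since the control values are listed at 0 and the depth is unknown.

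Zeros were not spread evenly over the control limbs. Members listed at 0 numbered 13 in the first, 22 in the second and 12 in the third DMSO-treated limb. The highest DMSO value fell in the first limb for 45 members, in the second for 20 and in the third for 49. The second DMSO-treated limb thus held the most zeros and the fewest maxima of the controls among the members. These counts were not set beside those of other assembled genes, so no trait of the members is read from them. The highest iMDK value fell in the first limb for 40 members, in the second for 33 and in the third for 49.

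**Figure D3:**
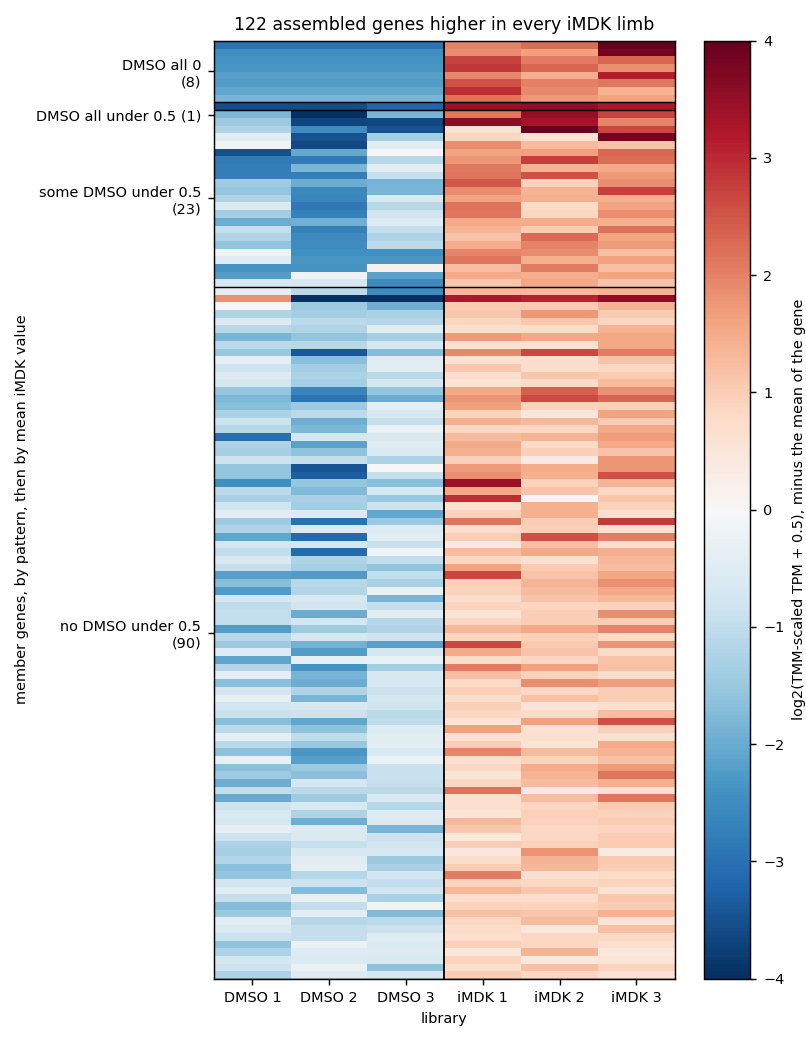
Heat map of log2(value + 0.5) less the mean of the gene over the 6 limbs, for the 122 members (rows) in the 3 DMSO-treated and 3 iMDK-treated limbs (columns), with members grouped by their pattern in DMSO-treated limbs. The group listed at 0 in every DMSO-treated limb holds 8 members, and 90 members have no DMSO-treated limb under 0.5.

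The rule sets no limit on the spread within a group, and the members were more variable than other assembled genes of similar minimum. The ratio of the highest to the lowest iMDK-treated limb had a median of 1.64 over the members and 1.35 over the 11720 assembled genes with at least 5 in every iMDK-treated limb. It was above 3 in 16 members, or 13.1%, against 2.93% of the 11720. In DMSO-treated limbs the median ratio was 2.38 over the 97 members above 0 in all 3, against 1.49 over 11651 assembled genes. The rule chose the members on these same values, and they had lower DMSO levels than the other assembled genes. The parts of the rule and of level in this spread were not tested, so no trait of the members is read from it.

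The largest ratio within the treated group was that of c1067317_g1, at 8.01, 88.0 and 34.8 in iMDK-treated and 1.88, 0.474 and 0 in DMSO-treated limbs. c1578181_g1 was at 9.78, 8.08 and 79.4 in iMDK-treated and 3.60, 0 and 1.69 in DMSO-treated limbs. c1072846_g2 was at 101, 13.2 and 27.8 in iMDK-treated and 4.92, 4.84 and 4.11 in DMSO-treated limbs. A different iMDK-treated limb was the high one in each of these 3.

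In 6 members the highest iMDK-treated limb exceeded the middle one by more than 3 times, in 2 of them by more than 5 times. In DMSO-treated limbs the highest exceeded the middle one by more than 3 times in 14 members, counting those with a highest value of at least 1, and by more than 5 times in 9, c1046138_g1 among them. At the other end, 47 members had iMDK-treated limbs within 1.5 times of each other. The closest was c1087585_g4, at 15.1, 15.3 and 15.1 in iMDK-treated and 7.41, 4.56 and 6.95 in DMSO-treated limbs, named after its values were seen.

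Among members at 0.5 or more in every DMSO-treated limb, the largest ratios of the lowest iMDK to the highest DMSO value were those of c1089890_g2 and c497164_g1. c1089890_g2 was at 7.42, 3.11 and 6.46 in DMSO-treated and 93.5, 173 and 140.1 in iMDK-treated limbs, a ratio of 12.6. c497164_g1 was at 17.8, 4.52 and 15.3 against 198, 334 and 214, a ratio of 11.1. The lowest treated limb was more than 10 times the highest control limb in both.

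c1050095_g1 was at 1.43, 0.942 and 0.679 in DMSO-treated and 33.7, 10.6 and 18.04 in iMDK-treated limbs. c1081163_g10 was at 0.982, 2.11 and 2.55 against 17.1, 19.4 and 27.3. Their ratios were 7.41 and 6.72, from control levels under 3.

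Fewer transcripts were assembled for the members than for other assembled genes of similar minimum. One transcript was assembled for 70 members, or 57.4%, against 33.9% of the 11720 assembled genes with at least 5 in every iMDK-treated limb. Another 32 members had 2 or 3 transcripts, and 20, or 16.4%, had 4 or more, against 29.6% of the 11720. The rule acts on sums, in which a transcript that differs can be diluted by other transcripts of its gene. Applied to single transcripts, the thresholds were met by 233 transcripts. The members also had lower DMSO levels. The parts of the rule and of level in these shares were not tested, so no trait of the members is read from them. The members had 264 transcripts in all, 235 of them above 0 in some limb, and the most in a member was 13.

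In 48 members at least 2 transcripts were above 0, with 161 such transcripts between them. Of these, 90 were higher in every iMDK-treated limb than in any DMSO-treated limb, 2 were lower in every one, and 69 overlapped. Over all 44342 assembled genes at 1 or more in 3 libraries, 8.38% were higher and 8.23% lower without overlap, and since the rule chose on the sums nothing is read from the difference. The transcript with the highest iMDK mean was higher without overlap in 45 of the 48 members, and every transcript above 0 was so in 16. This transcript held a median of 68.7% of the iMDK value of its gene, from 30.6% upward, and more than 90% in 8 members. In most members with several transcripts above 0, the groups thus did not separate in every transcript. Of the 161 transcripts, 21 had a lower mean in iMDK-treated than in DMSO-treated limbs, so most of those that overlapped were higher in the mean.

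**Figure D4:**
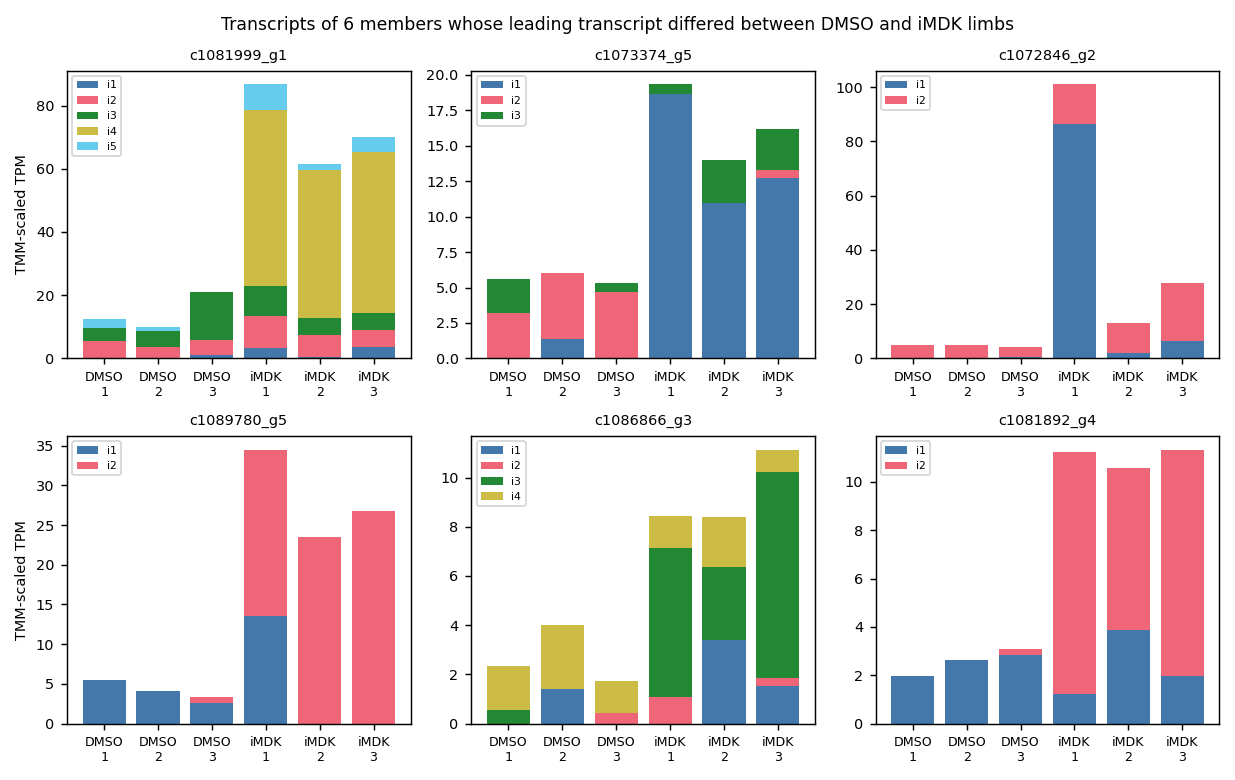
Stacked bars of the value of each transcript (TMM-scaled TPM, axes that differ between panels) in each of the 6 limbs for 6 members whose leading transcript differed between the groups. In c1081999_g1 the leading transcript of iMDK-treated limbs, i4, was listed at 0 in all 3 DMSO-treated limbs and held 46.7 to 55.7 in the iMDK-treated limbs.

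Of the 47 members with at least 2 transcripts above 0 and a DMSO value, 30, or 63.8%, had the same leading transcript by group mean in both groups, and 17 had another. Of 7394 assembled genes with at least 5 in every iMDK-treated limb, at least 2 transcripts above 0 and a DMSO value, 88.1% had the same one. In 10 of the 17 the leading transcript of iMDK-treated limbs held under 10% of the DMSO value, and in 5 it was listed at 0 in every DMSO-treated limb. Limb by limb the pattern was less uniform: the leading transcript by iMDK mean led in all 3 iMDK-treated limbs in 8 of the 17, in 2 limbs in 4 and in 1 limb in 5, and in 6 of the 8 it led in no DMSO-treated limb. The median DMSO mean was 2.79 in the 17 and 2.69 in the 30, against 17.5 over the 11720 assembled genes with at least 5 in every iMDK-treated limb. The 7394 were not matched to the members in level or in number of transcripts. The parts that level and the division of reads among isoforms have in these shares were not tested. The members and transcripts named for this in the next sentences were picked after their values were seen.

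In c1081999_g1, of 5 transcripts, i4 was at 0, 0 and 0 in DMSO-treated and 55.7, 46.7 and 50.9 in iMDK-treated limbs. i3, which led by DMSO mean and in 2 of the 3 DMSO-treated limbs, was at 4.28, 5.02 and 15.2 against 9.49, 5.46 and 5.21. The sum was 12.4, 10.03 and 21.0 against 86.7, 61.4 and 70.1. The higher sum of the iMDK-treated limbs thus came mostly from i4, which made up 70.2% of it, and i3 overlapped between the groups.

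c1073374_g5 had transcripts that went opposite ways. i1 was at 0, 1.40 and 0 in DMSO-treated and 18.6, 11.0 and 12.7 in iMDK-treated limbs. i2 was at 3.21, 4.61 and 4.67 against 0, 0 and 0.623. i2 was higher in every control limb and i1 in every treated limb. In c1072846_g2 and c1069735_g1, by contrast, the change of leading transcript rested on the first iMDK-treated limb, the one high for these genes. The leading i3 of c1069735_g1 was at 86.2, 0 and 0 in iMDK-treated limbs and at 0 in every DMSO-treated limb.

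The members with the most transcripts above 0 were c1067317_g1 (11 of 13), c1085680_g2 (9 of 13), c1086707_g4 (6 of 7), and c1087273_g4 and c1092132_g1 (6 of 6 each). c1085680_g2 was at 1.15, 0.529 and 2.89 in DMSO-treated and 19.7, 11.9 and 13.2 in iMDK-treated limbs. Its i13 was at 1.15, 0.529 and 1.11 in DMSO-treated limbs and at 0 in every iMDK-treated limb, whereas i8 was at 0 in every DMSO-treated limb and at 5.53, 7.49 and 2.61 in iMDK-treated limbs. No transcript that made up the control value remained above 0 in the treated limbs.

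c1086707_g4 was at 12.1, 12.1 and 10.4 in DMSO-treated and 25.4, 45.9 and 30.8 in iMDK-treated limbs. c1087273_g4 was at 1.01, 3.27 and 2.67 against 10.2, 13.7 and 15.7. In c1067317_g1, i10 and i1 held 49.0% and 34.1% of the iMDK value, and both were highest in the second iMDK-treated limb.

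The 122 members came from 105 components, of which 14 held at least 2 members, 31 members in all. Genes of 1 component share sequence, so these members are not separate observations. 3 components held 3 members each: c1089890, c1070307 and c1087273, which apart from members given above were named after their values were seen.

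In c1089890, g5 was at 11.4, 5.07 and 11.3 in DMSO-treated and 102, 183 and 122 in iMDK-treated limbs. g6 was at 3.17, 0 and 2.96 against 54.3, 141 and 82.3. With g2, all 3 were highest in the second iMDK-treated limb and lowest in the second DMSO-treated limb. The gene g4 of the component, which is no member, was at 70.6, 58.2 and 131 against 203, 398 and 290.4, with the treated limbs in the same order as in the 3 members.

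In c1070307 the members were flat within groups. g3 was at 5.55, 6.93 and 5.91 in DMSO-treated and 22.5, 21.5 and 22.6 in iMDK-treated limbs. g5 was at 5.78, 4.03 and 5.26 against 19.4, 17.8 and 20.1, and g7 at 3.66, 4.38 and 2.85 against 11.2, 12.9 and 14.9. Of the other genes of the component, g2 was at 5.42, 26.3 and 21.1 against 12.2, 22.4 and 20.6, and g2 and g6 overlapped between the groups. g4 was flat too, but lower in every treated limb, at 7.03, 7.65 and 8.20 against 5.99, 5.14 and 5.19.

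In c1087273, g1 was at 1.35, 0.206 and 2.30 in DMSO-treated and 12.7, 11.0 and 11.0 in iMDK-treated limbs, and g3 at 1.26, 1.52 and 2.53 against 9.34, 15.1 and 17.5. Of the genes that are no members, g7 was at 2.59, 12.96 and 5.38 against 4.44, 7.58 and 11.6, and g8 at 0, 1.77 and 3.33 against 8.74, 5.24 and 4.69. The groups overlapped for g7 and did not for g8, whose lowest treated limb was under the level of 5.

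For 45 members no other gene of the component, members aside, had a value above 0. For the remaining 77, the sum of the non-member genes of the component was higher in every iMDK-treated limb in 28, lower in every one in 3, and overlapped in 46. Members of the same component share this sum, so some sums are counted more than once and the 77 are not separate observations. Over all assembled genes, 8.38% were higher and 8.23% lower without overlap, shares that are of single genes and not of such sums. When the non-member genes were added to the member, the thresholds were still met in 32 of the 77. In this sum, which leaves out any other member of the component, the ratio was thus diluted below the threshold for most of the 77. It is not the sum of the whole component.

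Of 93 non-member genes of these components that reached 1 in 3 libraries or more, from 51 components, 34, or 36.6%, were higher without overlap and 5, or 5.38%, lower. The shares over all assembled genes were the 8.38% and 8.23% given above. Since reads of near-identical sequence are divided between genes of a component, these neighbours are not independent of the members, and no test was made.

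**Figure D5:**
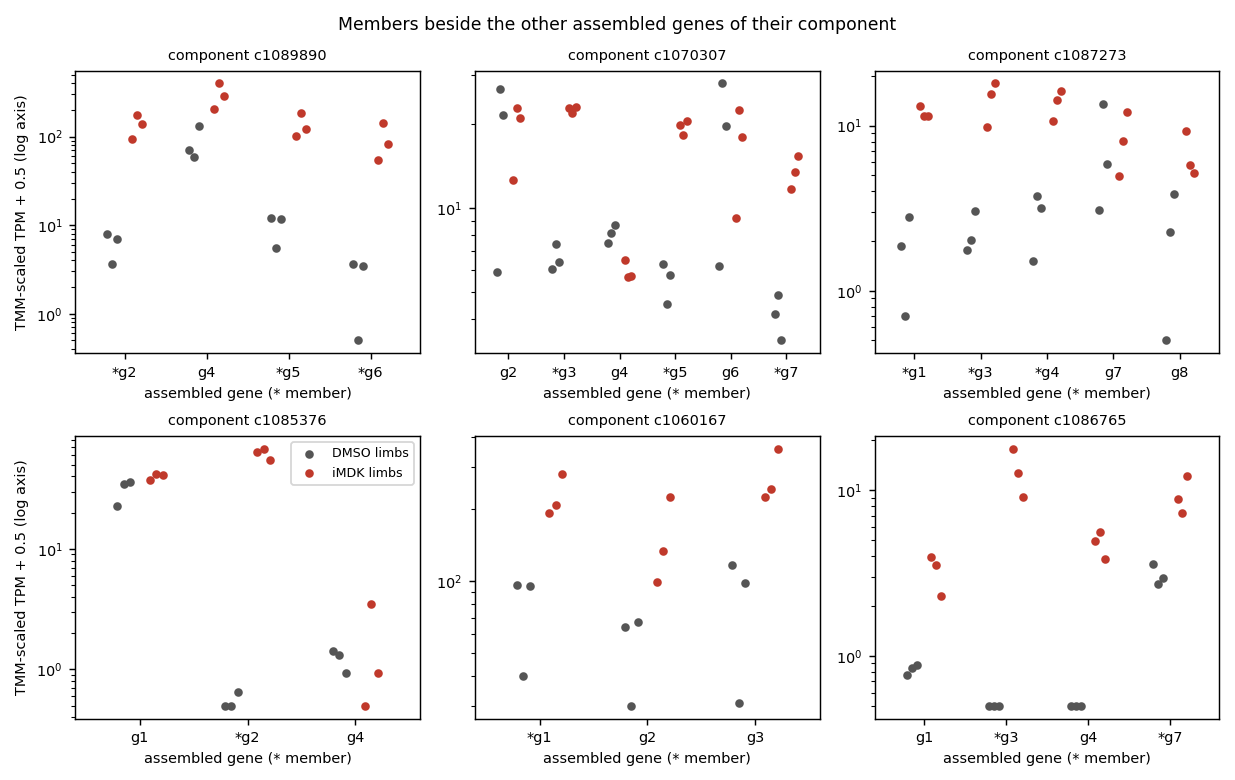
Value + 0.5 (TMM-scaled TPM, log axes that differ between panels) of members (starred) and of other genes of the same component in each DMSO-treated (grey) and iMDK-treated (red) limb, for 6 components. In c1070307 the 3 members are higher in every iMDK-treated limb, g2 and g6 overlap between the groups, and g4 lies lower in the iMDK-treated limbs.

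Single components show the range, each named after its values were seen. c1091168_g2 was at 59.3, 35.5 and 40.3 in DMSO-treated and 141, 186 and 177 in iMDK-treated limbs, beside a g1 at 15713, 9854 and 15591 against 24507, 20107 and 19344. c1073021_g6 was at 0, 0 and 1.26 against 14.3, 18.98 and 10.5, beside a g1 at 45.1, 46.3 and 48.4 against 49.6, 51.0 and 43.3. c1089819_g5 was at 6.62, 1.95 and 4.99 against 14.2, 19.6 and 17.7, beside a g3 at 31.8, 27.3 and 26.5 against 16.3, 14.04 and 16.8. The neighbour was far more abundant in the first case, level between groups in the second and lower in the treated limbs in the third.

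Names were scarce among the members. The names used here, which the study pairs with transcripts of this assembly, cover 6.99% of the 11720 assembled genes with at least 5 in every iMDK-treated limb. Among the members they cover 0.820%, that is, c1046138_g1 alone. These names come from genes the study chose in other experiments. The study also lists annotated transcripts that differed between DMSO-treated and iMDK-treated limbs. That list was not used here, so a member without a name here may have one in the study. All 4 left-out genes that met the thresholds carried a name, with the hits HBB1, HBB2, CP2J6 and TGM1. The low share among the members thus follows in part from the rule. Another gene of the component was named for 4 members, picked here for that name, which the member itself does not carry.

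c1070122_g2 shares a component with c1070122_g1, whose hit is CP2J6, a cytochrome P450 of the mouse, from a family of enzymes that oxidise fatty acids and foreign compounds. The member was at 2.57, 0.170 and 0.191 in DMSO-treated and 103, 84.3 and 32.6 in iMDK-treated limbs. CP2J6 itself, which the rule left out, was at 0.863, 1.19 and 1.34 against 97.4, 100.4 and 45.4. Both were lowest in the third of the iMDK-treated limbs.

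c1060167_g1 shares a component with an assembled gene whose hit is MMP3, stromelysin, a metalloproteinase that cleaves extracellular matrix. The member was at 95.7, 39.6 and 95.1 in DMSO-treated and 193, 208 and 279.7 in iMDK-treated limbs. The gene with the MMP3 hit, g3, was at 116, 30.6 and 98.0 against 225, 243 and 357, and g2 at 63.9, 29.7 and 67.2 against 99.1, 134 and 224. All 3 were higher in every iMDK-treated limb and lowest in the second of the controls, and g1 alone reached a ratio of 2. Metalloproteinases form a family of close copies, between which reads may be divided.

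c1082664_g3 stands beside a gene with the hit ZO1, a scaffold protein of tight junctions. The member was at 3.09, 0.993 and 3.45 in DMSO-treated and 13.7, 10.5 and 11.4 in iMDK-treated limbs, and the gene with the hit at 9.32, 6.74 and 8.40 against 11.2, 12.3 and 12.3. c1089780_g5 stands beside a gene whose hit is POL_GALV, a retroviral polyprotein, and was at 5.46, 4.11 and 3.32 against 34.5, 23.5 and 26.8; that gene was at 10.3, 2.44 and 0 against 8.78, 10.3 and 11.8. The gene with the ZO1 hit was higher without overlap by less than the member, and the gene with the retroviral hit overlapped.

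Fitted over all assembled genes with limma on log2(value + 0.5), 14 of 44342, or 0.0316%, were called higher and 10, or 0.0226%, lower, a call being a fold above 2 with a Benjamini-Hochberg adjusted p below 0.05. Of the 14, 11 were members and 3 were genes that the rule left out. The rule and the fit used the same contrast, so that nothing is read from this count. Leaving out any 1 library brought the members called from 11 to 0 or 1. The members called were c1051469_g1, c1069619_g1, c1089890_g5, c1089890_g2, c1085376_g2, c1089780_g5, c1070307_g3, c1020209_g1, c1086765_g3, c1443240_g1 and c1030452_g1. The median log2 difference was 2.47 over the members (1.23 to 6.83) and -0.01 over all assembled genes tested, a description that the rule fixes in sign.

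Markers of the cell types of the limb were read as sums of named genes, with no member on any of these lists, which could hold named genes alone and so had no place for the 121 members without a name. HBB1, HBB2 and TGM1, which are on the lists and met the thresholds, were left out of the members by the rule. Over all assembled genes tested, 8.38% were higher and 8.23% lower without overlap, the shares beside which the counts below stand. The 16 epidermal genes summed to 9083 to 13482 in DMSO-treated and 12829 to 14838 in iMDK-treated limbs, with 3 of 15 tested higher without overlap. The 16 connective tissue and blastema genes summed to 1736 to 3415 against 2723 to 3386, with 0 of 16 higher without overlap. These tissues of the limb were thus well represented in every library.

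Muscle genes were few and low (3 genes, 3.78 to 8.79 against 5.29 to 8.25), and 2 endothelial genes summed to 14.4 to 21.0 against 21.0 to 33.0. The 14 macrophage and osteoclast genes summed to 5165 to 6209 against 6425 to 8133, and 5 of 13 tested were higher without overlap. Those 5 had the hits GILT, NPC2, CD63 and GRN. The GRN hit belonged to c1067279_g4 and c1067279_g6, which share a component and are not separate observations. The genes with the hits MPEG1, C1QA, CD5L, EMR1, OCSTP and CATK overlapped between the groups. The more abundant MPEG1 gene, for example, was at 362, 297 and 1909 in DMSO-treated and 2207, 450 and 1488 in iMDK-treated limbs. Erythrocyte genes summed to 8.79 to 19.3 against 44.2 to 84.9, and 3 of 6 were higher without overlap. These had the hits HBB1, HBB2 and HBA, globins on the list that the rule leaves out. The genes with the hits HBA2, also a globin, ERMAP and HEM0 overlapped between the groups. HBA2 was at 4.67, 3.74 and 4.99 in DMSO-treated and 5.30, 2.72 and 4.56 in iMDK-treated limbs. Mobile elements and viruses, 157 genes of which 9 were at 0 throughout, summed to 524 to 545 against 446 to 591, with 1 of 59 tested higher and 6 lower without overlap. The sums of the erythrocyte and the macrophage list did not overlap between the groups, but each list holds genes that overlapped. HBB1 and HBB2 themselves met the thresholds of the rule, so the erythrocyte sum is not separate from it. No change of a cell type is read from either sum, and the part of these lists in the members' values was not tested. In libraries of whole limb tissue, more cells of a type and more RNA per cell cannot be told apart.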

How the data were processed

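RNA of regenerating limbs was made into Nextera XT libraries, 3 per treatment. Reads were trimmed (Trimmomatic) and assigned by kallisto to transcripts of a Trinity assembly by the authors, whose own comparison used DESeq2, in versions not given in the sources used here. Per transcript, the signal the authors deposited is a TPM times 1 TMM factor for each library. It keeps no read totals, so depth is unknown and no counting interval was computed.

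Groups came from the labels. Transcripts were summed per assembled gene with pandas 2.3.3 in Python 3.11.15 (numpy 2.4.6, plots with matplotlib 3.10.9). limma 3.58.1 (mean-variance trend, 2-sided) in R 4.3.3 with data.table (version 1.17.8) was fitted to log2(value + 0.5), for assembled genes at 1 or more in at least 3 of 6 libraries, with Benjamini-Hochberg adjustment, and tested on simulated data. Fold changes on that scale understate low genes. The members, the lists and the rule for named genes were chosen with earlier results of these data known. That rule took the 8 highest by iMDK mean, the 8 with the highest lowest-iMDK value among those under 0.5 in every DMSO-treated limb, members with a name, the 4 with most transcripts, the 3 on each side of each threshold, the 6 highest ratios of lowest iMDK to highest DMSO value among members at 0.5 or more in every DMSO-treated limb, the 8 smallest limma p-values among called members and the 4 with the largest iMDK spread. Names of 1694 transcripts come from tables of the study, as blastx entries from the skin flap experiment or as names of midkine receptors. 0 identifiers matched RefSeq. Sequences of the assembly were not used here.

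The alternatives tried were other pseudocounts, filters, scalings, thresholds and units of the rule, leaving out each library, and a replicate block.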

Additional observations from a re-analysis of the deposited data

How the results depend on the processing

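The number of members depended on the thresholds and on the unit. With a lowest iMDK value of 1 it was 763 and of 10 it was 77, with a ratio of 1.5 it was 300 and of 3 it was 57, over single transcripts 233 and over whole components 81. Leaving out 1 library can only add members and gave 181 (without the third iMDK-treated limb) to 275 (without the first), with 272 without the third DMSO-treated limb. With the TMM factor undone it was 103, of which 102 were among the 122, with median-of-ratios scaling 123 (118 shared) and with quantile normalization 111 (109 shared). The count called higher by limma (14) was 6 with a pseudocount of 0.1, 324 with no filter on low values, 27 with a filter of 5, 8 with the TMM factor undone, 447 without the mean-variance trend, and 0 to 2 without 1 library, whichever it was (0 without the first iMDK-treated limb, where 2212 genes had an unadjusted p under 0.05 and a higher level). The count called lower (10) was 3, 114, 6 and 373 with a pseudocount of 0.1, no filter, no TMM factor and no trend, and 0 to 1 without 1 library (1650 to 2242 at an unadjusted p under 0.05). Members called (11) were 5, 101, 24, 7 and 46 in the order of the first list, and 0 to 1 without 1 library (121 or 122 at an unadjusted p under 0.05). The cause was not tested. A limma fit that took the replicate number as a block called 0 higher, 0 lower and 0 members (2625, 2393 and 122 at an unadjusted p under 0.05, against 2562, 2168 and 122 without it). Same-numbered limbs correlated in their deviations from the group means at 0.0711, 0.0583 and 0.00455, and limbs of different numbers at -0.106 to 0.0571. With 3 limbs per group these values cannot settle whether the numbers pair the limbs. Over the 33 members named by the rule and 16 alternatives, 528 log2 differences were recomputed: none changed sign, 411 stayed on their side of the threshold, 80 lost the call and 37 gained it, with a range of 1.21 to 9.11. Unknown depth limits values near 0 most.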
